A study of Mus musculus with 4 samples.

Results

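T-box factors are transcription factors that share a DNA-binding domain, the T-box, and include activators and repressors of organ patterning. Expression of 7 of their genes, *Tbx20*, *Tbx2*, *Tbx3*, *Tbx4*, *Tbx5*, *Tbx15* and *Tbx18*, was followed in smooth muscle cells (SMCs) sorted from mouse lung after loss of *Tet3*, which codes for an enzyme that oxidizes 5-methylcytosine in DNA. *Tbx20* was selected on its difference between Tet3 mutant and control libraries in these same data, and the other genes were added as members of its family known from lung mesenchyme or mural cells. The 7 genes are among 21462 listed, and all have a row of values. Values of the 7 genes in this contrast are therefore a description, and no test is given for them.

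RNA came from C57BL/6 mice, with 2 control libraries (labelled WT) and 2 Tet3 mutant libraries (labelled Mut). By the study's methods, Tet3 mutant animals carried floxed *Tet3*, an α-SMA-ERT2Cre transgene and a tdTomato reporter, and controls lacked the floxed allele but carried the Cre transgene, the reporter or both. Tamoxifen was given to young adults, lungs were depleted of CD45+ and Ter-119+ blood cells, and DAPI-, tdTomato+ cells were sorted. Controls sorted in this way need both the Cre transgene and the reporter. Recombination thus marks cells in which the *Acta2* promoter was active, in vessels and airways alike, and the labels give neither sex nor age of each animal. Values are normalized counts, that is, reads per gene scaled between libraries and rounded by the authors. Each log2 fold change divides Tet3 mutant by control and was taken on log2(value + 1), with the moderated standard error (SE) of a limma fit across all genes.

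*Tbx20* is best known from the heart, where it acts with GATA and NKX2-5 factors and recruits TLE and NuRD corepressors. *Tbx2*, *Tbx3*, *Tbx4* and *Tbx5* form 2 linked pairs that pattern limb, heart and lung. In lung mesenchyme *Tbx4* and *Tbx5* act in bud outgrowth and branching with *Fgf10*, and *Tbx2* and *Tbx3* keep mesenchymal cells proliferating. *Tbx18* marks epicardium and mural cells, and *Tbx15* acts in skeleton and dermis.

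*Tbx20* (ENSMUSG00000031965, chromosome 9, 24718138 to 24774303 on GRCm38, minus strand) spans 56166 bases and has 5 annotated transcripts, 3 of them protein-coding. Its promoter sequence is given because *Tbx20* is the gene on which the account turns and because its CpG sites are the substrate of DNA methylation, which was not measured in these libraries. The 250 bases before the annotated start lie at chr9:24774304-24774553 on the minus strand (RefSeq sequence, GRCm38.p6) and read 5′ to 3′, with CpG dinucleotides in capitals:
Tbx20 promoter: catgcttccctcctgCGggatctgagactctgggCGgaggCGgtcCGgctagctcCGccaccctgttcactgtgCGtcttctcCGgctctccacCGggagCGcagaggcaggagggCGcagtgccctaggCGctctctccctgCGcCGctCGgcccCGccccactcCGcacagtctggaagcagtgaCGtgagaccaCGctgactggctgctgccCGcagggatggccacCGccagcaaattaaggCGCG

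These 250 bases held 22 CpG dinucleotides, a number that 14.8% of 32851 mouse promoter windows of this length reached, and 68.8% of the bases were G or C. The median window held 6 CpG. The Sp box GGGCGG occurred at 2 places, at 219 bases before the start on the printed strand and at 95 bases before it on the other strand, and 32.7% of all windows hold this motif on either strand. The T-box core GGTGTG and the GATA core AGATAA had no match on either strand, against 16.3% and 9.99% of all windows. Promoter windows were found for 3 of the 7 genes, and those of *Tbx18* and *Tbx4* held 15 and 6 CpG in 250 bases. The *Tbx4* window (chr11:85896515-85896814) lies inside the listed gene body, which starts at 85886422, and not before that start.

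*Tbx20* had 21 normalized counts in control replicate 1 and 11 in control replicate 2, but 242 in Tet3 mutant replicate 1 and 131 in Tet3 mutant replicate 2. Both mutant libraries lay above both controls, and the lower mutant value was 6.24 times the higher control value. The mean was 16 ± 7.07 in the controls and 186.5 ± 78.5 in mutants (SD, n = 2 each), an 11.7-fold ratio of means, and the log2 fold change was 3.46 with an SE of 0.47. From the scaling of each library, these values stand for about 21.9 and 10.5 reads in controls and 222 and 146 reads in mutants, so that the gene was rarely sampled in controls in libraries of 6.32 M to 7.56 M reads assigned to genes. Within each group the higher value was 1.91 times the lower in controls and 1.85 times in mutants. Without each library in turn the log2 fold change lay between 3.02 and 3.90.

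**Figure D1:**
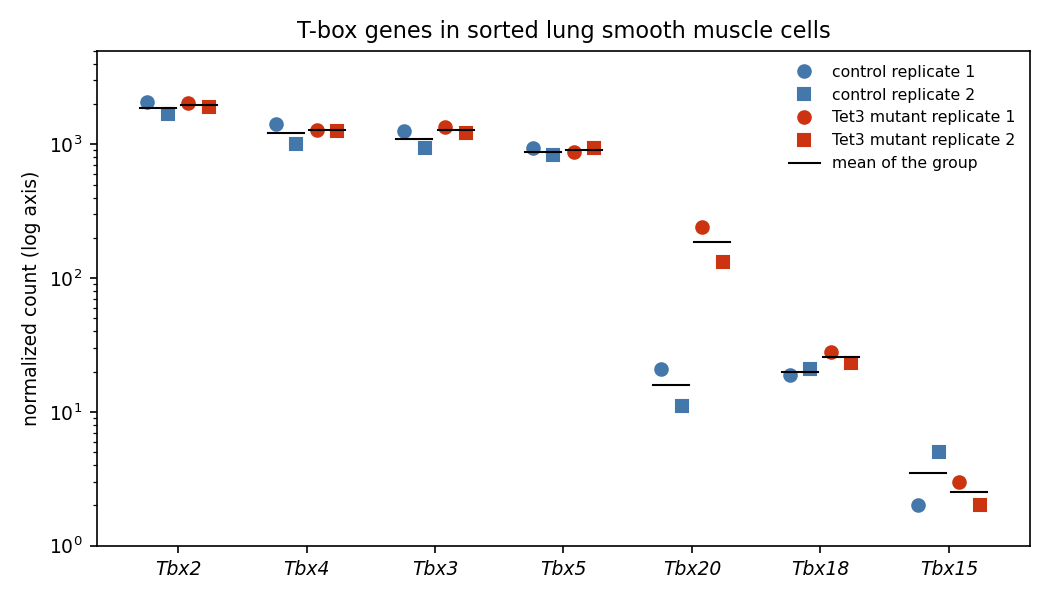
Normalized counts (log axis) of the 7 T-box genes in each of the 4 libraries, with circles for replicate 1, squares for replicate 2 and black lines at the mean of 2 libraries. *Tbx20* moves from 11 and 21 in controls to 131 and 242 in the mutants, and the points of *Tbx2*, *Tbx3*, *Tbx4*, *Tbx5* and *Tbx15* overlap between groups.

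Ranked by log2 fold change among the 16659 genes with a mean of at least 10, *Tbx20* stood in place 9 from the top. Most genes with larger values had few reads: of the 9 genes at or above *Tbx20*, only 2 had a mean of at least 50, a level that 12788 of the tested genes reached, and *Tbx20* is 1 of the 2. The other was *Xist*, with a log2 fold change of 5.36 (SE 3.5). *Xist* had 6781 and 2 normalized counts in the controls and 6542 and 5214 in the mutants. The values next to *Tbx20* in the ranking were 3.47 for *Igkv5-48* and 3.44 for *Iglv3*, both immunoglobulin segments with at most 89 normalized counts in any library. This place is a consequence of how *Tbx20* was chosen and is not evidence of its own.

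**Figure D2:**
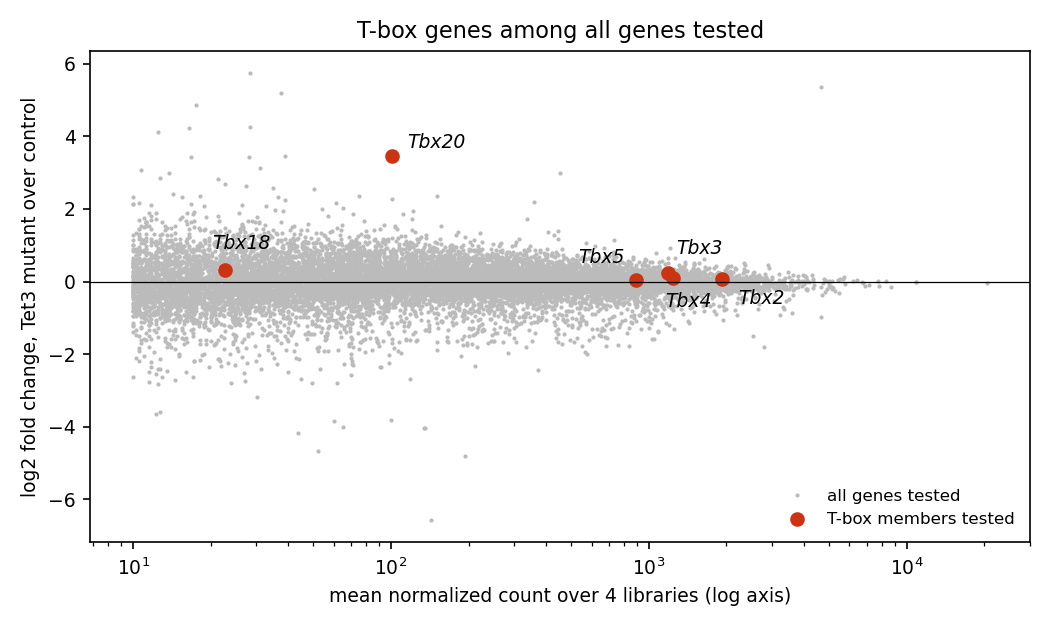
Log2 fold change (Tet3 mutant over control) against the mean normalized count over 4 libraries (log axis) for the 16659 genes tested, in grey, with the 6 T-box members that reached a mean of at least 10 in red. *Tbx20* lies at 3.46, and the other red points lie between 0.05 and 0.33.

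The first linked lung pair is *Tbx2* and *Tbx4*. *Tbx2* (ENSMUSG00000000093, chromosome 11, 85832551 to 85841948, plus strand) codes for a repressor that keeps lung mesenchyme in cycle, and had 2054 and 1687 normalized counts in the controls and 2036 and 1893 in the mutants. *Tbx4* (ENSMUSG00000000094, chromosome 11, 85886422 to 85916097, plus strand), a marker of lung mesenchyme from its outset, had 1410 and 1002 in the controls and 1287 and 1266 in the mutants. In both genes the mutant values fell between the 2 controls. The means were 1870.5 ± 259.5 and 1964.5 ± 101 for *Tbx2* and 1206 ± 288.5 and 1276.5 ± 14.8 for *Tbx4* (controls, then mutants; SD, n = 2 each). Log2 fold changes were 0.08 for *Tbx2* (SE 0.13) and 0.10 for *Tbx4* (SE 0.18), smaller than their SE. The 2 genes lie 44.5 kb apart.

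The second linked pair, *Tbx3* and *Tbx5*, lies 148 kb apart on chromosome 5. *Tbx3* (ENSMUSG00000018604, 119670669 to 119684724, plus strand), a repressor close in sequence to *Tbx2*, had 1252 and 933 normalized counts in the controls and 1347 and 1208 in the mutants. *Tbx5* (ENSMUSG00000018263, 119832668 to 119885219, plus strand), an activator in heart and forelimb and a partner of *Tbx4* in lung branching, had 937 and 825 in the controls and 882 and 936 in the mutants. Groups overlapped in both genes. The log2 fold change of *Tbx3* was 0.24 (SE 0.17), with means of 1092.5 ± 226 and 1277.5 ± 98.3, and that of *Tbx5* was 0.05 (SE 0.12), with means of 881 ± 79.2 and 909 ± 38.2 (SD, n = 2 each).

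The mural and epicardial factor *Tbx18* (ENSMUSG00000032419, chromosome 9, 87702800 to 87731260, minus strand) had 19 and 21 normalized counts in the controls and 28 and 23 in the mutants. Both mutants were above both controls, but by as little as 2 normalized counts, and the log2 fold change of 0.33 was smaller than its SE of 0.37. *Tbx18* lies 62.9 Mb from *Tbx20* on the same chromosome. *Tbx15* (ENSMUSG00000027868, chromosome 3, 99240381 to 99354259, plus strand) had 2 and 5 in the controls and 3 and 2 in the mutants. Its mean was under the minimum of 10, and with values around the floor of 3 counts no fold is given.

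Of the 7 genes, 6 reached the minimum mean of 10. Groups did not overlap in 2 of the 6, *Tbx20* and *Tbx18*, both higher in mutants, whereas 19.6% of all genes tested were higher and 19.5% were lower without overlap. As the contrast served to choose *Tbx20*, nothing is read from that count. The median log2 fold change of the 6 genes was 0.17, against -0.01 over all genes tested.

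Control replicate 2 had the lowest value in 5 of the 6 genes, and in 33.1% of all genes tested. Without that library the log2 fold change was 3.03 for *Tbx20*, 0.03 for *Tbx3* and 0.40 for *Tbx18*, and it turned below 0 for *Tbx2* (-0.07), *Tbx4* (-0.14) and *Tbx5* (-0.04), with a median of -0.01. Without control replicate 1 the values of *Tbx2*, *Tbx3*, *Tbx4* and *Tbx5* were 0.22, 0.45, 0.35 and 0.14, and the median was 0.31. The same library stood apart in other measures: *Xist* had 2 normalized counts there and 5214 to 6781 in the others, and the Y-linked *Ddx3y* had 774 there and was listed at 0 in the others. By these 2 genes control replicate 2 came from a male and the others from females. Sex thus differed within the controls and was not balanced between the groups. The part of sex in these values was not tested. *Tet3* itself had 1847 and 1926 normalized counts in the controls and 1534 and 1444 in the mutants, a log2 fold change of -0.34 (SE 0.10; limma adjusted p = 0.681).

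Markers of several cell types were present in every library, so that levels are those of a sorted fraction and not of SMCs alone, and fewer cells of a type cannot be told apart from less RNA per cell. The 10 smooth muscle markers were all detected, with sums of 10762 and 11305 normalized counts in the controls against 12895 and 11870 in the mutants. Sums were higher in mutants without overlap for pericyte markers too (4709 and 5034, then 6843 and 5869), as for endothelial markers (13264 and 12740, then 14285 and 13791) and leukocyte markers (6772 and 5441, then 7869 and 7799). A sum follows its most abundant genes. Gene by gene, 6 of 10 smooth muscle, 6 of 8 pericyte, 2 of 8 endothelial and 5 of 7 leukocyte markers tested were higher without overlap. Over all genes tested this share was 19.6%. The pericyte marker *Rgs5* was lower without overlap (244 and 342, then 192 and 201). Groups overlapped in the sums of fibroblast (17506 to 21049), epithelial (6374 to 11232) and mesothelial markers (757 to 1353). Like *Tbx2*, *Tbx3*, *Tbx4* and *Tbx5*, most markers of several types had their lowest value in control replicate 2, with 7 of 8 tested for fibroblasts, 7 of 8 for endothelium, 7 of 7 for leukocytes and 7 of 7 for T and NK cells. That library was lowest in 33.1% of all genes tested. It was lowest in only 1 of 10 smooth muscle, 2 of 8 pericyte, 2 of 9 epithelial and 3 of 7 mesothelial markers. Control replicate 1 was lowest in 8 of the 10 smooth muscle and 5 of the 8 pericyte markers. The part of these cell types in the T-box values was not tested.

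Per kilobase of annotated exon, which allows levels of different genes to be compared, *Tbx2* was highest with 566 and 465 normalized counts per kb in controls and 562 and 522 in the mutants. *Tbx4* followed with 415 and 295 in the controls and 378 and 372 in the mutants, below *Tbx2* in every library. *Tbx5* (176 to 200 over the 4 libraries) and *Tbx3* (141 to 203) came next and overlapped. Their order depends on the length used: over the exons of protein-coding transcripts only, *Tbx3* had 241 and 179 per kb in the controls and 259 and 232 in the mutants, above *Tbx5* in each library. By this measure *Tbx2* exceeded 99.4% of the tested genes in controls, and *Tbx4*, *Tbx5* and *Tbx3* exceeded 97.8%, 89.6% and 86.3%.

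The other 3 genes were low. In controls, *Tbx18* had 4.03 and 4.45 normalized counts per kb, *Tbx20* 1.75 and 0.917, and *Tbx15* 0.534 and 1.33, so that *Tbx18* was above *Tbx20* in each library and *Tbx20* and *Tbx15* overlapped. In mutants, *Tbx20* had 20.2 and 10.9 per kb and *Tbx18* 5.93 and 4.87, with *Tbx20* now above *Tbx18* in each library. *Tbx20* still reached only a small part of the lung factors: it made up 0.11% and 0.0706% of the summed level per kb of 13 T-box genes in controls and 1.29% and 0.734% in mutants. Among tested genes its level per kb exceeded 0.348% in controls and 20.5% in mutants. The 12.0 kb of *Tbx20* exons include 1 transcript annotated as a retained intron. Over the 9.57 kb of its protein-coding transcripts, a length tried after the values had been seen, *Tbx20* had 2.20 and 1.15 normalized counts per kb in the controls and 25.3 and 13.7 in the mutants, against 4.06 and 4.49 and then 5.98 and 4.92 for *Tbx18*. Without division by length the control values of *Tbx20* (21 and 11) and *Tbx18* (19 and 21) overlap, so that their order in controls rests on the annotated lengths.

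Members of the T-box family outside the 7 genes were counted in the fit across all genes. Of 10 such genes, 6 were listed and 5 tested: *Mga*, *Tbx1*, *Tbx6*, *Tbx21* and *Eomes*. By limma 0 of the 5 had an adjusted p under 0.05 and 0 an unadjusted p under 0.05, where 0% of all genes passed the adjusted threshold and 3.83% (higher) and 2.85% (lower) the unadjusted. The median log2 fold change was -0.06, and 1 of 5, *Eomes*, was above 0. *Eomes* had a control mean of 9.5 and reached the minimum of 10 only through its mutant values, so nothing is read from its sign. *Mga*, a MAX partner with a T-box, had 2585 and 2431 normalized counts in the controls and 2448 and 2221 in the mutants. *Tbx1*, a factor of the pharyngeal arches, had 64 and 98 in the controls and 77 and 75 in the mutants, and *Tbx6*, of the paraxial mesoderm, had 27 and 43 and then 25 and 28. Mutant values overlapped those of controls in each of these 3 genes.

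*Tbx21* and *Eomes* code for the T-box factors of T cells and NK cells. *Tbx21* had 30 and 13 normalized counts in the controls and 22 and 17 in the mutants. *Eomes* had 19 in control replicate 1, was listed at 0 in control replicate 2, and had 21 and 22 in the mutants, a log2 fold change of 2.33 (SE 1.43; limma adjusted p = 0.701) that was 0.17 without control replicate 2. It lay between 1.00 and 2.82 under the processing alternatives, since the value listed at 0 makes it depend on the pseudocount. The 8 markers of T cells and NK cells summed to 353 and 69 in control replicates 1 and 2 and to 332 and 327 in the mutants, so that *Eomes* and these markers were both low in the same library. *Tbr1* had 4 and 0 in each group and was not tested. *Tbx10*, *Tbx19*, *Tbx22* and the Brachyury gene *T* were not analysed here.

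Factors that work with *Tbx20* in the heart were examined next. Of 19 genes fixed as cardiac partners, 16 were tested. By limma 0 passed the adjusted threshold, and at an unadjusted p under 0.05 there were 2 higher and 2 lower of 16, against 3.83% and 2.85% of all genes tested. The median log2 fold change was -0.05. The 2 higher genes were *Gata4* and *Hand2*, which code for early cardiac transcription factors, and the 2 lower were *Srf*, the factor of CArG boxes in muscle genes, and *Tle2*, a Groucho corepressor. *Gata4* had 19 and 9 normalized counts in the controls and 48 and 40 in the mutants, a log2 fold change of 1.66 (SE 0.48; limma adjusted p = 0.681), and groups did not overlap. The log2 fold change of *Gata4* was 1.16 without control replicate 2 and 2.16 without control replicate 1. *Hand2* had 3 in each control and 20 and 14 in the mutants (limma adjusted p = 0.681), a ratio of summed values of 5.67 with an exact 95% counting interval of 2.35 to 16.5. That interval pools the libraries of a group, takes rounded normalized counts as reads and covers counting error only, not variation between animals. *Hand2* reached the minimum of 10 only through its mutant values, so nothing is read from its place among the 2 higher genes or from that interval.

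Of the lower genes, *Srf* had 612 and 573 normalized counts in the controls and 435 and 439 in the mutants, a log2 fold change of -0.44 (SE 0.11; limma adjusted p = 0.681). *Tle2* had 389 and 888 in the controls and 299 and 279 in the mutants, a log2 fold change of -1.02 (SE 0.39; limma adjusted p = 0.681) that was -0.43 without control replicate 2 and -1.62 without control replicate 1. The corepressors *Tle1*, *Tle3* and *Tle4*, the deacetylases *Hdac1* and *Hdac2* and the NuRD helicases *Chd3* and *Chd4* had log2 fold changes between -0.28 and 0.04. The other GATA genes, *Gata5* and *Gata6*, had 0.01 and -0.22, and *Mef2c* had 0.40. *Nkx2-5*, *Isl1* and *Hand1* were not analysed here.

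Genes known to be controlled by T-box factors in the heart numbered 15, of which 11 were tested. Of these, 0 passed the adjusted threshold by limma, and at an unadjusted p under 0.05 there were 0 higher and 1 lower, a count near the 3.83% and 2.85% of all genes tested. The lower gene was *Kcnj2*, an inward rectifier potassium channel, with 517 and 1235 normalized counts in the controls and 271 and 376 in the mutants. The log2 fold change of *Kcnj2* was -1.32 (SE 0.43; limma adjusted p = 0.681) and -0.69 without control replicate 2. The gap junction genes *Gja5* and *Gja1* had log2 fold changes of 0.17 and -0.35, and the calcium pump gene *Atp2a2* had -0.01. *Nppa*, which codes for atrial natriuretic peptide and is a classical T-box target, was listed at 0 in both controls and had 9 and 27 in the mutants. The mutant mean of 18 is 6 times a floor of 3 counts per library, a ratio that leaves out the spread between the mutants. Its mean of 9 was under the minimum, so it was not tested. Over the 11 genes the median was -0.05.

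**Figure D3:**
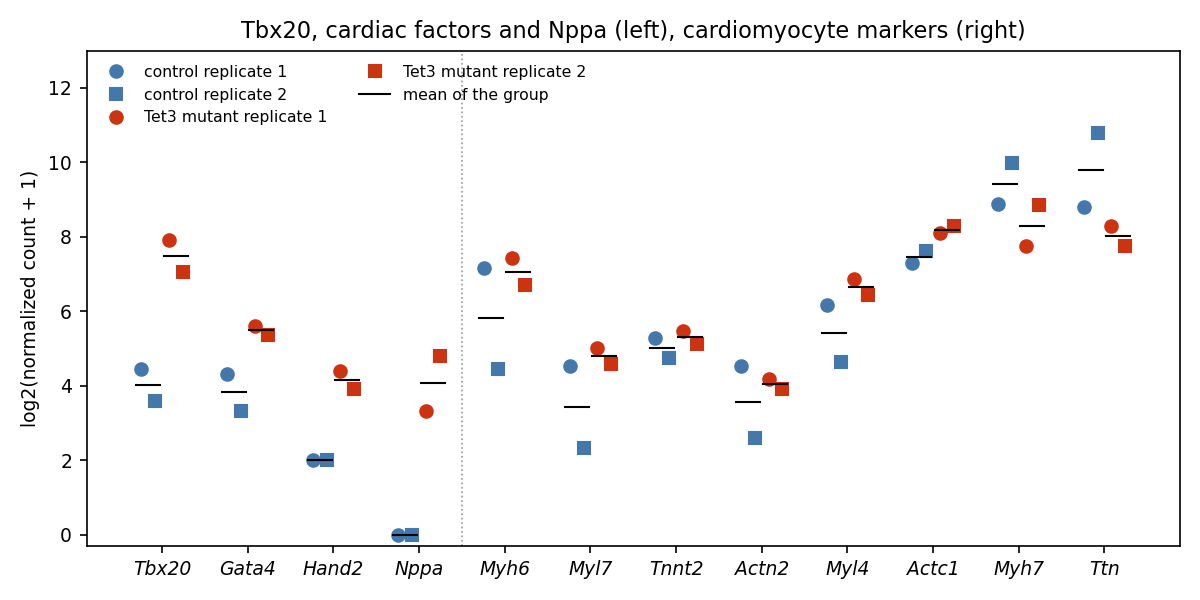
Log2(normalized count + 1) of *Tbx20*, *Gata4*, *Hand2* and *Nppa* (left of the dotted line) and of 8 cardiomyocyte markers (right) in each of the 4 libraries, with black lines at the mean of 2 libraries. For *Tbx20*, *Gata4*, *Hand2* and *Nppa* the mutant points lie above all control points, as they do for *Actc1*, *Myl4* and *Myl7*. The groups overlap for *Myh6*, *Tnnt2* and *Actn2*, and *Myh7* and *Ttn* are lower in the mutants. *Ckm* and *Myl3*, also lower in the mutants without overlap, are not shown. *Gata4*, *Hand2* and *Nppa* do not stand for their lists. Of 16 cardiac partners tested, 3 were higher and 5 lower without overlap, and of 11 cardiac targets 2 were higher and 2 lower. Over all genes tested these shares were 19.6% and 19.5%. *Srf*, *Tle2*, *Tle4* and *Kcnj2*, lower in the mutants without overlap, are not shown.

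Cardiomyocyte markers were detected in every library. Mouse pulmonary veins are known to carry a sleeve of cardiac muscle. The 15 markers with values summed to 1532 and 3145 in the controls and to 1374 and 1361 in the mutants. *Ttn* and *Myh7* made up 915 and 2763 of the control sums and 527 and 672 of the mutant sums. Both were highest in control replicate 2 (1759 and 1004), where *Myh6* (21) and *Myl7* (4) were lowest. The listed markers thus did not move together, and no amount of cardiomyocytes is read from their sums. The other 13 markers summed to 617 and 382 in the controls and to 847 and 689 in the mutants, higher without overlap, so that the direction of the sum depends on *Ttn* and *Myh7*, a split made after the values had been seen. The cardiac actin gene *Actc1* had 156 and 197 normalized counts in the controls and 274 and 310 in the mutants, and the atrial light chain genes *Myl4* and *Myl7* had 71 and 24, then 116 and 86, and 22 and 4, then 31 and 23. These 3 genes were the ones of 13 tested that were higher in mutants without overlap, and 3 were lower without overlap, near the 19.6% and 19.5% of all genes tested. The 3 lower genes were *Ttn*, *Myh7* and *Ckm*, which had 11 and 26 in the controls and 5 and 7 in the mutants. *Myl3*, not tested, had 4 and 12, then 1 and 2. Groups overlapped in *Myh6*, which codes for the atrial myosin heavy chain and had 143 and 21, then 171 and 103, and in the troponin gene *Tnnt2*, which had 38 and 26, then 43 and 34. The median log2 fold change of the 13 was 0.48, or -0.11 without control replicate 2. The part of cardiomyocytes in the *Tbx20* values was not tested.

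The lung mesenchyme network around *Tbx2*, *Tbx3*, *Tbx4* and *Tbx5* was represented by 16 genes, all tested. By limma 0 passed the adjusted threshold, and at an unadjusted p under 0.05 there was 1 higher and 0 lower of 16, a count near the 3.83% and 2.85% of all genes tested. The higher gene was *Frzb*, a secreted Wnt antagonist that *Tbx2* represses in lung, with 8 and 3 normalized counts in the controls and 19 in either mutant, a log2 fold change of 1.74 (SE 0.58; limma adjusted p = 0.681), 1.15 without control replicate 2. *Frzb* reached the minimum only through its mutant values, so nothing is read from its place as the higher gene. *Shisa3*, a second Wnt antagonist of this kind, had 126 and 17 in the controls and 152 and 119 in the mutants. *Fgf10*, the branching signal downstream of *Tbx4* and *Tbx5*, had 568 and 340 in the controls and 542 and 595 in the mutants, and *Wnt2* had 506 and 270 and then 460 and 402.

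The cell cycle inhibitor genes *Cdkn1a* and *Cdkn1b*, known to be repressed by *Tbx2* and *Tbx3*, had 181 and 280 and 752 and 781 normalized counts in the controls and 267 and 321 and 753 and 775 in the mutants. Mutant values overlapped those of controls in *Shisa3*, *Fgf10*, *Wnt2*, *Cdkn1a* and *Cdkn1b*. The median log2 fold change of the 16 genes was 0.27, with 13 above 0, and was -0.04 without control replicate 2, the library in which 12 of the 16 genes had their lowest value.

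Neighbouring genes were examined to see whether higher values extended along the chromosome. Within 500 kb on either side 6 genes were listed and 3 tested. By limma 0 passed the adjusted threshold. At an unadjusted p under 0.05 there were 1 higher and 0 lower of 3, against 3.83% and 2.85% of all genes tested. Nothing is read from a count over 3 genes. The higher gene was *Dpy19l1*, which codes for a mannosyltransferase and lies 215 kb beyond the 3′ end of *Tbx20*. *Dpy19l1* had 622 and 436 normalized counts in the controls and 719 and 762 in the mutants, a log2 fold change of 0.51 (SE 0.19; limma adjusted p = 0.681), or 0.25 without control replicate 2. *Dpy19l2*, the nearest listed gene at 21.8 kb, had 8 and 2 in the controls and 4 and 5 in the mutants. *Herpud2* and *Septin7*, at 334 and 478 kb on the other side, had log2 fold changes of 0.02 each (SE 0.12 and 0.11). The noncoding gene *Gm29642* and the pseudogene *Gm8031* had at most 4 in any library.

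**Figure D4:**
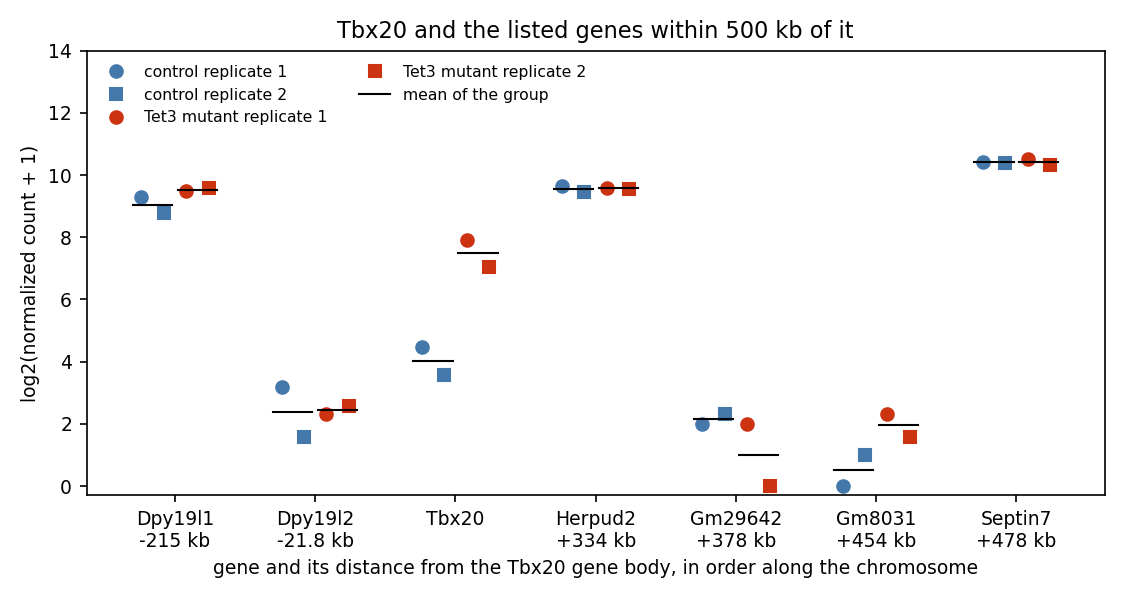
Log2(normalized count + 1) in each of the 4 libraries for *Tbx20* and the 6 listed genes within 500 kb of it, in order along the chromosome with the distance from the gene body in kb. Only for *Tbx20* do the mutants lie over 6-fold above both controls, and *Dpy19l2*, at 21.8 kb, stays at 2 to 8 normalized counts.

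Transcripts that start within 1000 bases of a member's start on the opposite strand were looked up after the values had been seen. They were found for *Tbx2*, *Tbx3* and *Tbx5*. *2610027K06Rik*, 328 bases from the start of *Tbx2*, had 118 and 57 normalized counts in the controls and 93 and 99 in the mutants. *Tbx3os1*, whose start lies 696 bases inside *Tbx3*, had 79 and 67 and then 104 and 84. *Gm43050*, 646 bases from the start of *Tbx5*, had 164 and 105 and then 177 and 152. By limma the adjusted p of the 3 noncoding genes was 0.890, 0.725 and 0.756, and like their T-box neighbours they were lowest in control replicate 2. As the use of strand in counting was not stated, *Tbx3* and *Tbx3os1* are uncertain where they overlap.

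The genes whose pattern over the 4 libraries was most like that of *Tbx20* were found by the Euclidean distance between centred log2(value + 1) profiles, among genes with a mean of at least 50. They were *Neto1*, an auxiliary subunit of glutamate receptors, the immunoglobulin segment *Igkv14-111*, the matrix protein gene *Fbln7*, the retinol dehydrogenase gene *Adh7* and *Ankrd63*. Distances were 1.12, 1.63, 1.94, 2.03 and 2.06. *Neto1* had 30 and 18 normalized counts in the controls and 153 and 100 in the mutants, so that like *Tbx20* it was lowest in control replicate 2 and highest in Tet3 mutant replicate 1. *Adh7* had 133 and 44 and then 259 and 190, and *Fbln7* had 58 and 37 and then 155 and 126. In none of the 5 genes did the groups overlap, which follows from how they were found, and their log2 fold changes of 1.52 to 2.36 were below that of *Tbx20*.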

How the data were processed

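RNA from 2 control and 2 Tet3 mutant samples was depleted of ribosomal RNA by the authors and made into stranded total RNA libraries. Per the labels and methods, the authors trimmed reads (Trimmomatic), aligned them (STAR, mm10, GRCm38), counted them over exons (featureCounts) and scaled counts with DESeq2. What was deposited is a score, namely whole-number normalized counts per gene, with library totals of 6805272 to 7164573. Each library's scaling factor (0.900 to 1.090) was estimated from missing or doubled low values, as raw reads could not be recovered, and no count model was fitted.

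Groups and replicate numbers came from sample titles. Genes with a mean of at least 10 were fitted on log2(value + 1) with limma 3.58.1 in R 4.3.3 (mean-variance trend, Benjamini-Hochberg adjustment over 16659 genes, threshold 0.05), after tests on simulated data. P-values measure the spread between 2 libraries per group, moderated by limma toward a trend across all genes tested. An exact permutation test could not go below 0.333. Intervals and the floor of 3 counts cover counting error only. Exon lengths are from GENCODE M21, which held 99.8% of the gene identifiers, 99.1% of them at the deposited coordinates. Promoter windows matched by symbol (RefSeq, GRCm38.p6).

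Members and lists were chosen with earlier results of these data known. Genes named are the 7 members, list genes at an unadjusted p under 0.05, listed T-box genes, neighbours within 500 kb and the 5 nearest profiles. Others were named after their values were seen. Alternatives were a pseudocount of 0.5 or 8, a minimum mean of 1 or 50, equal totals, quantile normalization, no trend, the replicate number as a block and each library left out. Exon lengths of coding transcripts and a cardiomyocyte marker sum without *Ttn* and *Myh7* were added after seeing the data.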

Additional observations from a re-analysis of the deposited data

How the results depend on the processing

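With a pseudocount of 0.5 or 8, a minimum mean of 1 or 50, equal totals, quantile normalization, no trend and the replicate block, the log2 fold change of *Tbx20* lay between 2.99 (pseudocount 8) and 3.51, and the median of the T-box members between 0.10 and 0.23. The number of genes called by limma over all genes tested was 0 under each of these settings except without the mean-variance trend, where it was 1. At an unadjusted p under 0.05 it lay between 876 and 1637. None of the 5 gene lists had a call at the adjusted threshold under any setting, leaving out libraries included. At an unadjusted p under 0.05 and with all libraries, cardiac partners had 2 to 5 genes, cardiac targets 0 to 2, lung mesenchyme genes 0 to 3, neighbours 0 to 1 and other T-box genes 0.

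Leaving out each library in turn leaves 1 sample in a group, which the limma fit assumes to vary like the other group. The log2 fold change of *Tbx20* then ranged from 3.02 to 3.90 and the median of the members from -0.01 to 0.31. Genes with an unadjusted p under 0.05 numbered 3366 without control replicate 1, 894 without control replicate 2, and 273 or 414 without Tet3 mutant replicate 1 or 2, and 0 genes passed the adjusted threshold in each of these fits. The counts at an unadjusted p ranged from 1 to 9 for cardiac partners, 0 to 4 for cardiac targets, 0 to 8 for lung mesenchyme genes and 0 to 1 for neighbours and for other T-box genes, with the highest count of each list in the fit without control replicate 1.

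Groups share replicate numbers. Deviations from group means correlated by 0.134 (Pearson) and 0.123 (Spearman) across 16659 genes for samples that share a number. With only 2 such pairs, this does not establish a pairing. When replicate number entered the fit as a block, the log2 fold change of *Tbx20* stayed at 3.46 and the median of the members at 0.17, 0 genes were called, and 1637 had an unadjusted p under 0.05 against 1112 without it. Depth limits *Tbx15*, *Hand2*, *Frzb* and *Nppa*, which have under 10 normalized counts in each control.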
